A study of Mus musculus with 101 samples.

Results

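The nuclear-encoded genes of the mitochondrial respiratory chain and ATP synthase were followed in adipose tissue of mice that gained or lost Inhbe, the gene of the inhibin beta E chain that the liver secretes. Members were all protein-coding genes with symbols that start with Nduf, Uqcr, Cox followed by a digit, or Atp5, plus Sdha, Sdhb, Sdhc, Sdhd and Cyc1. Cox8b and Cox7a1 were left out as markers of thermogenic fat. This gave 101 of the 24475 genes in the tables. They were 36 subunits of complex I, 4 of complex II, 9 of complex III, 18 of complex IV, 17 of complex V (the ATP synthase) and 17 assembly factors that the symbol rule also takes. Ndufa4 and Ndufa4l2 were counted with complex IV, where the Ndufa4 protein is known to reside.

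RNA-seq libraries came from subcutaneous and epididymal fat of male C57BL/6NTac mice. In the first experiment, wild-type (WT) mice on chow received an AAV8 vector that expressed mouse Inhbe in the liver (mInhbe) or an AAV8 vector that expressed GFP, with 10 libraries per vector and depot. In the second, Inhbe knockout (KO) mice and WT mice were fed a high-fat diet (HFD) or chow. The KO HFD group had 8 libraries per depot, WT HFD had 7 subcutaneous and 8 epididymal libraries, KO chow had 7 per depot and WT chow had 8 per depot. Age, time on diet, vector dose, the vector's promoter and the structure of the KO allele were not given in the sources used here. Nothing in the labels says whether libraries of the same number in the 2 depots came from the same mouse.

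The respiratory chain passes electrons from NADH (complex I) and succinate (complex II) through complex III and cytochrome c to oxygen at complex IV. The proton gradient built on the way drives complex V. A few core subunits of complexes I, III, IV and V are encoded by mitochondrial DNA and all other subunits by nuclear genes, so assembly needs both genomes. In white fat, mitochondria support the synthesis and breakdown of lipid, and brown or beige fat cells hold many more of them.

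Nuclear respiratory factor 1 (Nrf1), the ETS-family factor Gabpa, estrogen-related receptors (Esrra) and YY1 are known regulators of these genes, and Ppargc1a is a coactivator that works with several of them. The letters of their core motifs were searched on both strands in the 250 bases before each RefSeq gene start (GRCm38.p6). Windows were found for 81 members (87 windows, since a gene can have several starts). The Nrf1 letters, GCGCA and GCGC with any 1 base between them, were in 15 of the 87 windows (17.2%), against 5.44% of 20104 windows of protein-coding genes. The ETS letters CCGGAAG were in 18 windows (20.7%), against 9.3% of those of protein-coding genes. The estrogen-related receptor letters AAGGTCA were in 5 windows (5.75%, against 3.55%) and the YY1 letters AAGATGGC in 2 (2.3%, against 1.53%). These are matches of letters in DNA, and no binding was measured. The 5 windows below are shown because they hold both Nrf1 and ETS letters (Sdhd, Cox6a1, Atp5h) or 3 Nrf1 matches (Ndufb4, Sdha). Their levels are given with the results. All 5 genes lie on the minus strand and are printed 5′ to 3′ up to the base before the start. Capitals mark the matches: the Nrf1 letters in all 5, CTTCCGG (the reverse strand of CCGGAAG) in Sdhd, Cox6a1 and Atp5h, and AAGGTCA in Ndufb4. The windows are chr16:37654369-37654618 (Ndufb4), chr13:74350241-74350490 (Sdha), chr9:50603850-50604099 (Sdhd), chr5:115348959-115349208 (Cox6a1) and chr11:115419920-115420169 (Atp5h).
Ndufb4: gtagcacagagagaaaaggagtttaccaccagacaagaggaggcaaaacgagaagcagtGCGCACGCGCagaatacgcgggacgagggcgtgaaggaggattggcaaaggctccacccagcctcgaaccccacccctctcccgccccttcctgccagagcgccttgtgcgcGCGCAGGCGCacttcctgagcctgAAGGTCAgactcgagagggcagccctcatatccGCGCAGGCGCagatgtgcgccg
Sdha: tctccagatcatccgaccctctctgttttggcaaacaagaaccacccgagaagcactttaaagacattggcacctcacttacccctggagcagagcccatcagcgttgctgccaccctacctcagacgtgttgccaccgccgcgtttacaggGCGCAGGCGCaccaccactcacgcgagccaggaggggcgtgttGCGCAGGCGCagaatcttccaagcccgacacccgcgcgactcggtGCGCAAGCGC
Sdhd: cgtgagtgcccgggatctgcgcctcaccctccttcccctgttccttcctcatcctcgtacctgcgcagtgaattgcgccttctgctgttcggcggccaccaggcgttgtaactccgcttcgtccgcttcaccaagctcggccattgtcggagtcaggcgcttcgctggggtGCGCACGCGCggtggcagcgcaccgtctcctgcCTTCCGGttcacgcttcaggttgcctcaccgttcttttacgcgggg
Cox6a1: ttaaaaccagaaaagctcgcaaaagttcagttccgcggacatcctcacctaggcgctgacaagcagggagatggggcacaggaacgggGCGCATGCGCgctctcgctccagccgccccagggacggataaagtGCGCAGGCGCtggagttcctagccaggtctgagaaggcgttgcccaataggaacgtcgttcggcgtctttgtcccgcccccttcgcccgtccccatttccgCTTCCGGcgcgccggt
Atp5h: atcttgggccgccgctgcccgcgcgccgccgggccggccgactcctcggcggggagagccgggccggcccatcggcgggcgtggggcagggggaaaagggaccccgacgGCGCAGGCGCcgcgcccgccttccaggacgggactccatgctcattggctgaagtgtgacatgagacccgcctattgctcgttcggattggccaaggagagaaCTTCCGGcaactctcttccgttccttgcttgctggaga

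Levels are given as CPM, the counts of a gene scaled to a common library total, and levels of different genes are compared only per kilobase of transcript. On that scale the catalytic beta subunit of the ATP synthase, Atp5b, had the highest level, with 673 CPM per kb averaged over the 12 groups. Cox4i1, the common form of a regulatory complex IV subunit, followed with 436 CPM per kb and Cox6b1 with 371. Among complex II subunits, the flavoprotein Sdha had 175 CPM per kb, the iron-sulfur subunit Sdhb 98.5, and the membrane anchors Sdhd and Sdhc 82.5 and 69.4. Assembly factors were far lower, between 3.18 CPM per kb (Ndufaf6) and 34.9 (Cox16). The alternative forms of complex IV subunits were low: Ndufa4l2 had 7.29, Cox4i2 2.96, the testis form Cox6b2 2.70 and the muscle form Cox6a2 0.807 CPM per kb. Cox7b2 and Cox8c averaged under 1 CPM in every group and were not tested, and Cox6a2 was tested only in the KO experiment. Hence 98 members were tested after the AAV and 99 in the KO experiment. Several small subunits have processed pseudogenes elsewhere in the genome, and how reads shared with such copies were counted is not given in the sources used here.

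Libraries held 12970509 to 20170746 counts, so that 3 counts in a library correspond to 0.149 to 0.231 CPM. Inhbe itself was at 0 in every GFP library. It reached 2.42 to 46.0 CPM (median 8.41) in mInhbe subcutaneous fat and 0.240 to 15.8 CPM (median 1.73) in mInhbe epididymal fat. In the KO experiment the highest library had 0.0655 CPM in KO groups and 0.334 CPM in WT groups, so fat RNA does not check the KO labels. The fat-cell gene Adipoq was at 654 to 3097 CPM over all libraries. Subcutaneous libraries held up to 1762 CPM of lymph-node markers in sum, and epididymal ones at most 133.2. Epididymal libraries held up to 16450 CPM of epididymis markers, and subcutaneous ones at most 1.27. The liver marker Alb had 0.870 to 3261 CPM in WT HFD and 14.2 to 43.7 CPM in KO HFD epididymal libraries, and the part of liver RNA in the results was not tested. A few libraries stood apart in the members' share of counts, as described with the results they touch. Log2 fold changes come from edgeR, which rescales library totals by TMM factors. These averaged 0.879 in KO HFD and 0.982 in WT HFD subcutaneous fat, and 0.891 in KO HFD and 1.01 in WT HFD epididymal fat. Fitted changes in these comparisons are therefore higher than ratios of the printed CPM. The chow factors averaged 1.11 (WT) and 1.05 (KO) in subcutaneous fat, and 1.07 (WT) and 1.05 (KO) in epididymal fat. Fitted changes of HFD over chow are thus higher than such ratios too. After the AAV the factors averaged 1.04 in mInhbe and 0.968 in GFP subcutaneous fat, and fitted changes there are lower than such ratios.

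The 101 members together took 0.956% ± 0.0843 of counts in mInhbe and 1.121% ± 0.0917 in GFP subcutaneous fat (SD, n = 10 each). In epididymal fat the shares were 1.036% ± 0.193 in mInhbe and 1.031% ± 0.191 in GFP libraries. KO HFD epididymal libraries had 1.155% ± 0.207 (n = 8) and WT HFD ones 0.821% ± 0.0699 (n = 8), and the 2 groups did not overlap (1.007% to 1.636% against 0.733% to 0.910%). In subcutaneous fat on HFD the ranges overlapped, with 0.967% to 1.114% in KO and 0.793% to 1.640% in WT libraries. That WT HFD group was the most variable: the median coefficient of variation of its members was 42.2%, against 7.25% to 24.3% in the other groups. Its library 3 alone held the 1.640%, and the other 6 lay between 0.793% and 1.155%. The 13 mitochondrially encoded chain genes moved on a different scale. They took 18.48% of counts in KO HFD and 8.92% in WT HFD subcutaneous fat, and 13.65% in KO HFD and 5.98% in WT HFD epididymal fat, with no overlap in either depot.

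**Figure D1:**
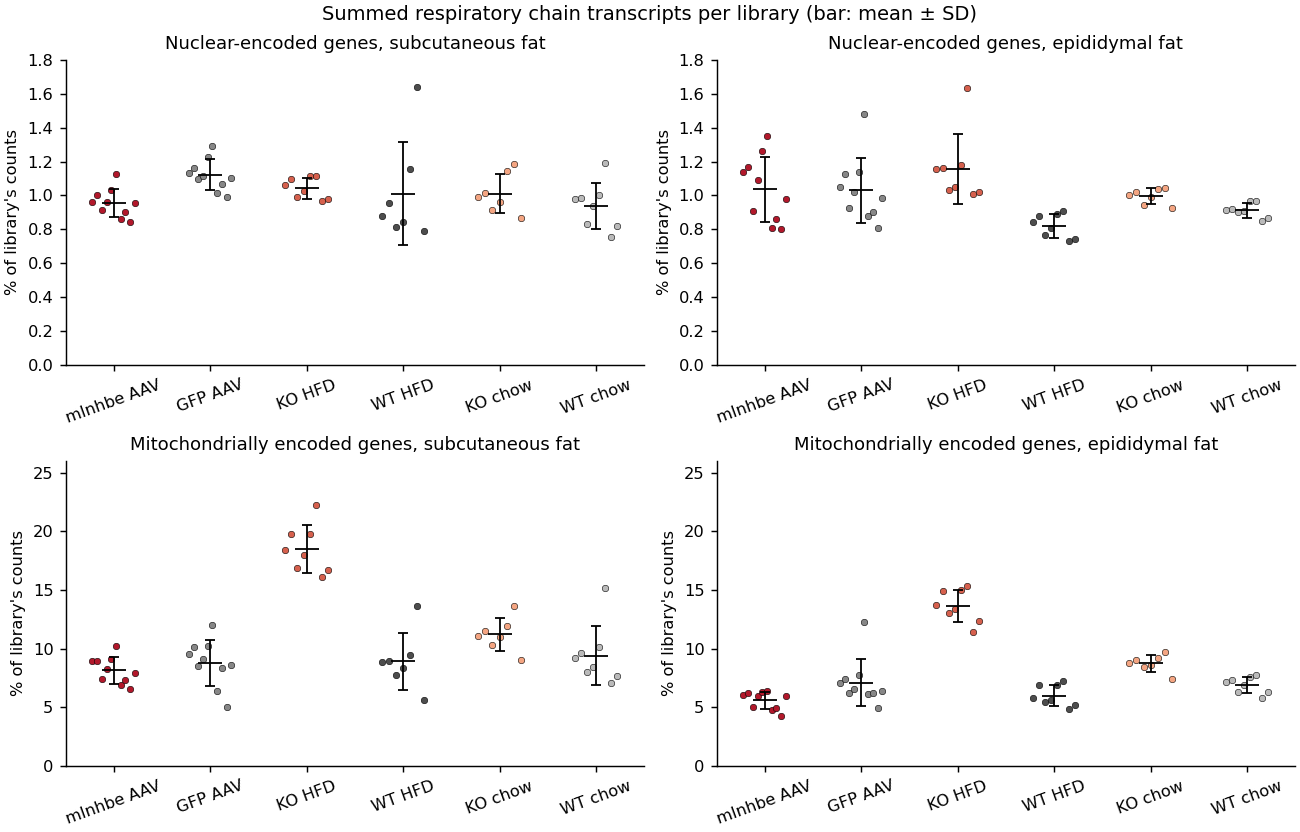
Share of each library's counts (percent, y axis) taken by the 101 nuclear-encoded members (top) and the 13 mitochondrially encoded chain genes (bottom) in the 12 groups, with points for libraries and bars for mean ± SD. KO HFD libraries lie above all WT HFD libraries for mitochondrially encoded genes in both depots, while the nuclear-encoded share separates them in epididymal fat only.

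Most of the chain was lower in subcutaneous fat of mInhbe mice. By edgeR's quasi-likelihood test, 71 of 98 members were lower in mInhbe than in GFP libraries and none was higher (adjusted p under 0.05, Benjamini-Hochberg over 13990 genes). Of all genes tested, 27.2% differed: 11.4% were lower and 15.8% higher. The members' median log2 fold change was -0.34, against 0.00 over all genes, and 97 of 98 members lay below 0. In bulk tissue, fewer cells of a type and less RNA per cell cannot be told apart.

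All 4 complex II subunits were lower. Sdhb had 93.8, 99.4 and 122.4 CPM in mInhbe libraries (lowest, median, highest), against 123.2, 144.0 and 176.2 CPM in GFP libraries. No mInhbe library reached the lowest GFP library, and the log2 fold change was -0.61 ± 0.09 (SE, n = 10 each, edgeR adjusted p = 0.000244). Sdhc, which anchors Sdhb in the membrane, had 103.8, 120.4 and 150.5 CPM in mInhbe, against 131.4, 162.8 and 201.8 CPM in GFP libraries (log2 fold change -0.53 ± 0.10, edgeR adjusted p = 0.00138). The flavoprotein Sdha changed least of the 4, by -0.21 ± 0.06 (edgeR adjusted p = 0.0143). Sdhd fell by 0.39 on the log2 scale.

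In complex I, 29 of 36 subunits were lower, with a median log2 fold change of -0.36. The accessory subunit Ndufa10 had 87.4, 102.0 and 118.7 CPM in mInhbe, against 117.3, 138.5 and 166.8 CPM in GFP libraries (log2 fold change -0.56 ± 0.09, edgeR adjusted p = 0.000406). Only the top of the mInhbe range met the bottom of the GFP range. The membrane-arm subunits Ndufb3 (-0.36 ± 0.06), Ndufb4 (-0.42 ± 0.08), Ndufb8 (-0.47 ± 0.14) and Ndufc1 (-0.54 ± 0.09) were lower too. Not every subunit followed: Ndufs1, the largest iron-sulfur core subunit, had a log2 fold change of -0.01 (edgeR adjusted p = 0.912).

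Complex III had 5 of 9 members lower. Its small subunit Uqcrq had 34.8, 45.8 and 62.4 CPM in mInhbe, against 46.9, 60.2 and 76.9 CPM in GFP libraries (-0.49 ± 0.11, edgeR adjusted p = 0.00483). The core subunit Uqcrc2 did not pass, with -0.16 ± 0.07 (edgeR adjusted p = 0.0728). In complex IV, 9 of 15 tested members were lower, among them Cox6c (-0.38 ± 0.07), Cox6b1 (-0.36 ± 0.08) and Cox4i1 (-0.38 ± 0.14). In complex V, 12 of 17 were lower, with Atp5b at -0.43 ± 0.11, the alpha subunit Atp5a1 at -0.31 ± 0.08 and the small subunit Atp5k at -0.46 ± 0.09. Of the assembly factors, 12 of 17 were lower. Cox19, which serves copper delivery to complex IV, had 18.3, 21.9 and 25.4 CPM in mInhbe, against 22.3, 30.2 and 33.1 CPM in GFP libraries (-0.55 ± 0.09, edgeR adjusted p = 0.000561). The assembly factor Ndufaf4, at 0.10, was the one tested member above 0.

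**Figure D2:**
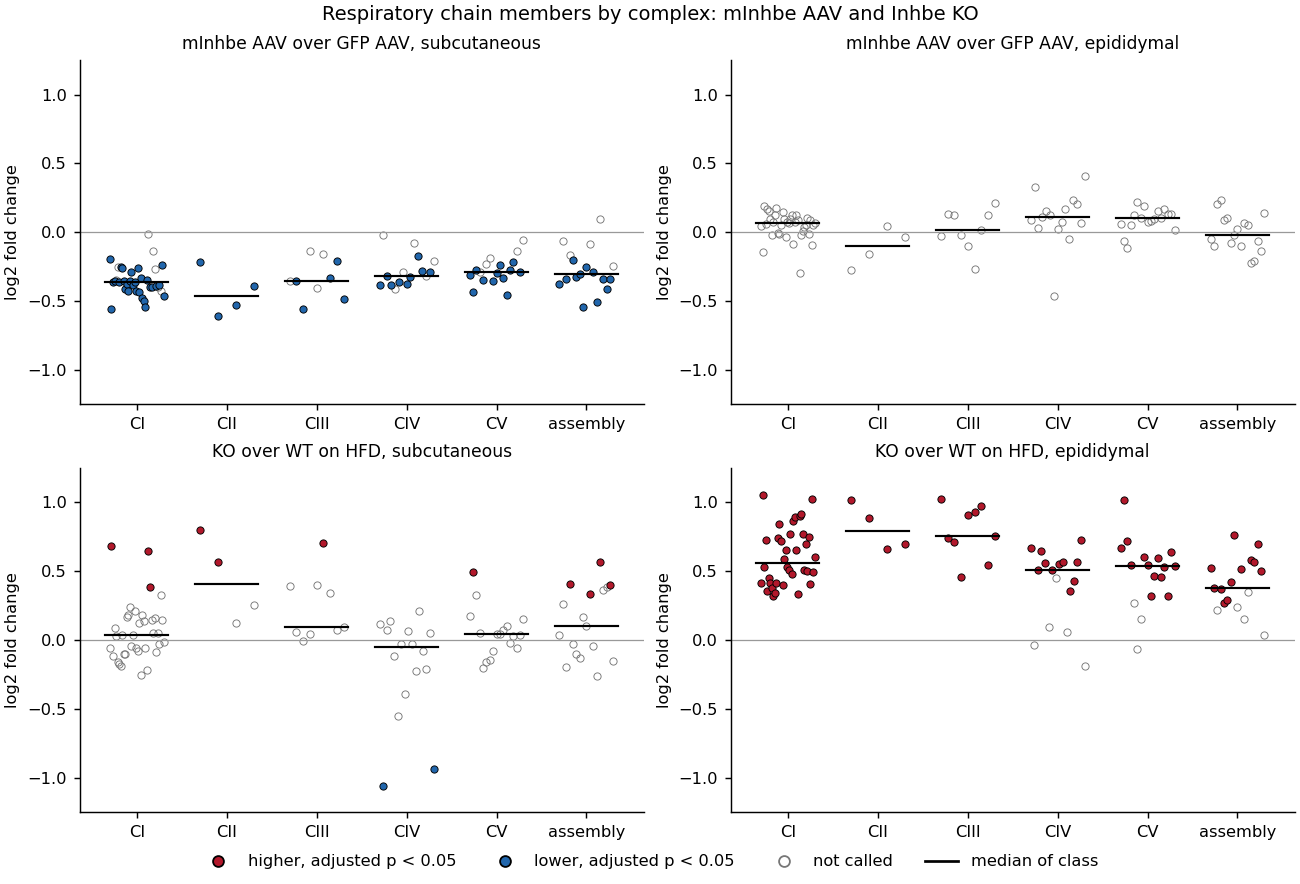
Log2 fold change (y axis) of each tested member by complex (CI to CV, and assembly factors) for mInhbe over GFP (top) and KO over WT on HFD (bottom), subcutaneous fat on the left and epididymal on the right; filled points passed an edgeR adjusted p of 0.05 and lines are class medians. The subcutaneous mInhbe medians lie between -0.46 and -0.29 and the epididymal KO medians between 0.38 and 0.79.

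Other mitochondrial genes went the same way in mInhbe subcutaneous fat. Of 20 tricarboxylic acid cycle genes 12 were lower and none higher, with the smallest adjusted p for Suclg1 (-0.44), Idh3g (-0.41) and Idh3b (-0.41). Of 78 mitochondrial ribosomal protein genes 41 were lower and none higher, with the smallest adjusted p for Mrps36 (-0.43), Mrps6 (-0.63) and Mrps23 (-0.31). Of the 13 mitochondrially encoded genes 3 were lower (ND6, ND3 and COX3). Among the regulators, Gabpa was higher (0.60, edgeR adjusted p = 0.00196) and Esrra lower (-0.41, adjusted p = 0.0349), while Nrf1 (0.07) and Ppargc1a (0.24) did not pass. These 4 regulators are named for the motifs above, with their values known.

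Markers of cell types differed in the same libraries. Of 15 fat-cell markers 5 were lower and none higher, with sums of 32180 to 47600 CPM in mInhbe and 37400 to 51440 CPM in GFP libraries. Of 13 lymph-node markers 3 were higher, with sums of 849.7 to 1762 CPM in mInhbe and 601.1 to 1323 CPM in GFP libraries. Means of thermogenic fat markers went both ways: Ucp1 had 73.8 CPM in mInhbe and 21.4 in GFP libraries, with overlap, and Cidea 59.8 and 70.6. Most macrophage markers had higher means in mInhbe libraries. Mrc1 had a mean of 114.2 CPM in mInhbe and 66.7 in GFP libraries, Cd163 88.6 and 67.2, and Clec7a 11.2 and 6.34, each with overlap. Only Gpnmb (22.8 and 25.1) and Trem2 (0.966 and 1.12) had lower means in mInhbe libraries. With a fat-cell score in the edgeR fit, 12 members remained lower and the members' median was -0.18. With a lymph-node score, 7 were lower and the median was -0.17, and Sdhb, Ndufb3, Ndufa10 and Cox19 passed the test in both of these fits. How far these markers account for the lower levels was not tested.

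In epididymal fat the chain genes of mInhbe mice showed no call. By edgeR, 0 of 98 members passed an adjusted p of 0.05 (1.16% of all genes did), 4 had an unadjusted p under 0.05, and DESeq2 also called 0. The median log2 fold change was 0.07. Sdha had 311.1, 391.2 and 465.5 CPM in mInhbe, against 376.4, 462.9 and 694.0 CPM in GFP libraries (-0.27 ± 0.11, edgeR adjusted p = 0.336). These ranges overlapped between 376.4 and 465.5 CPM, and the GFP median lay just below the highest mInhbe library. Ndufa4l2 had 0.41 ± 0.13 (adjusted p = 0.197). GFP epididymal library 8 stood apart with the highest share of members in its group (1.484%, next 1.137%), and no fit left out that library alone.

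The mInhbe effect was tested for a difference between depots. By edgeR, 15 of 98 members had a higher (less negative) effect in epididymal than in subcutaneous fat and none a lower one, where 4.09% of all genes were higher and 9.41% lower. Sdhc had effects of 0.05 in epididymal and -0.53 in subcutaneous fat (difference 0.56 ± 0.17, adjusted p = 0.0238). Ndufc1 had 0.13 in epididymal and -0.54 in subcutaneous fat (difference 0.65 ± 0.19, adjusted p = 0.0242), and Ndufb4 0.08 and -0.42 (difference 0.49 ± 0.15, adjusted p = 0.0272). Of the 15, 8 were in complex I. The count depended on the fit: DESeq2 called 23, the fit without the low-count filter 7, leaving out 3 GFP libraries that stood apart gave 5, and blocking on the replicate number gave 0.

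On chow, the chain genes of KO mice showed no call in either depot. By edgeR, 0 of 99 members differed between KO and WT in subcutaneous fat (0.253% of all genes did) and 0 of 99 in epididymal fat (0.658%), with 3 and 7 members at an unadjusted p under 0.05. DESeq2 called 0 in both depots. In subcutaneous fat 95 members lay above 0, with a median log2 fold change of 0.16, and in epididymal fat 92, with 0.15. The share of all genes above 0 is not set beside these counts. Members of one complex also share libraries and tissue make-up, so the counts are a description. Sdhc had 118.5, 133.9 and 163.3 CPM in KO, against 98.8, 112.7 and 151.3 CPM in WT chow subcutaneous libraries (0.30 ± 0.14, edgeR adjusted p = 0.699), with wide overlap. In epididymal fat Uqcrq had 44.8, 53.7 and 67.0 CPM in KO, against 41.4, 43.1 and 47.5 CPM in WT libraries (0.33 ± 0.13, edgeR adjusted p = 0.571).

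On HFD, nearly the whole chain was higher in epididymal fat of KO mice. By edgeR, 86 of 99 members were higher in KO than in WT libraries and none was lower, where 17.0% of all genes were higher and 20.2% lower. The median log2 fold change of members was 0.54, against 0.01 over all genes. All 36 complex I subunits, all 4 of complex II and all 9 of complex III were higher. In complex IV 11 of 16 were higher, in complex V 14 of 17, and of the assembly factors 12 of 17.

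The largest change among complex I subunits was in Ndufa10, with 129.8, 145.5 and 235.1 CPM in KO, against 76.9, 87.0 and 97.8 CPM in WT libraries (log2 fold change 1.05 ± 0.12, n = 8 each, edgeR adjusted p = 3.43e-08). Ndufs1 had 157.2, 171.6 and 192.4 CPM in KO, against 96.4, 106.6 and 115.3 CPM in WT libraries (0.90 ± 0.08, edgeR adjusted p = 1.29e-09). Sdha had 500.1, 568.8 and 741.5 CPM in KO, against 301.3, 329.4 and 359.1 CPM in WT libraries (1.01 ± 0.10, edgeR adjusted p = 4.9e-09). All KO libraries lay above all WT libraries for these 3 genes. In complex III, the core subunit Uqcrc2 had 207.7, 231.9 and 284.6 CPM in KO, against 125.9, 138.7 and 153.5 CPM in WT libraries (0.93 ± 0.09, edgeR adjusted p = 3.35e-09). The Rieske iron-sulfur protein Uqcrfs1 had 144.3, 158.9 and 207.5 CPM in KO, against 83.5, 96.7 and 108.3 CPM in WT libraries (0.97 ± 0.10, edgeR adjusted p = 4.34e-09). Neither gene's groups overlapped.

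Atp5b had 1383, 1556 and 2514 CPM in KO, against 804.7, 960.7 and 1104 CPM in WT libraries, again with no overlap (1.01 ± 0.13, edgeR adjusted p = 2.89e-07). In complex IV, with a median of 0.51, Ndufa4 was higher by 0.73 ± 0.09, Cox4i1 by 0.67 ± 0.12 and Cox6c by 0.55 ± 0.09. For Cox4i1 the groups overlapped, with 290.2 to 544.3 CPM in KO and 221.1 to 297.0 CPM in WT libraries. The genes whose promoters are printed above were all higher: Sdha by 1.01, Sdhd by 0.70, Cox6a1 by 0.56, Atp5h by 0.54 and Ndufb4 by 0.53. The 13 members that did not pass included the alternative forms Ndufa4l2 (-0.19), Cox4i2 (-0.04), Cox6b2 and Cox6a2, and the c-subunit genes Atp5g1 (-0.06) and Atp5g2. Atp5g3, the third gene of the c subunit that forms the rotor ring, was higher by 0.60 ± 0.11. The assembly factors Ndufaf5 (0.56 ± 0.10) and Ndufaf7 (0.50 ± 0.08) were higher as well.

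Other mitochondrial genes rose with them in KO HFD epididymal fat: all 20 tricarboxylic acid cycle genes (Idh3b 1.11, Dlst 0.97), all 13 mitochondrially encoded genes (CYTB 1.64, COX3 1.50, COX1 1.42) and 50 of 78 mitochondrial ribosomal protein genes. Esrra was higher by 0.61 (edgeR adjusted p = 8.39e-06) and Ppargc1a by 0.73 (adjusted p = 0.0177), while Nrf1 (-0.13) and Gabpa (-0.14) did not pass.

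Cell-type markers differed strongly in the same libraries. Of 15 fat-cell markers 12 were higher and none lower, with sums of 37970 to 47430 CPM in KO and 23980 to 43640 CPM in WT libraries. Of 12 macrophage markers 11 were lower and none higher, with sums of 882.5 to 1836 CPM in KO and 5037 to 8044 CPM in WT libraries. Of 11 thermogenic fat markers 7 were higher (Cidea 3.14, Dio2 2.76, Ucp3 1.38) and 1, Otop1, lower, with sums of 103.5 to 144.1 CPM in KO and 64.5 to 138.4 CPM in WT libraries. Ucp1, their defining gene, did not pass (1.04, edgeR adjusted p = 0.326). Ribosomal protein genes took 1.38% to 2.11% of counts in KO and 2.08% to 2.71% in WT libraries, and other genes with transcripts under 1000 bases 9.78% to 11.9% in KO and 7.59% to 9.53% in WT libraries. The part of these measures in the result was not tested. With a fat-cell score in the edgeR fit, 12 members passed, all of them higher. Among these, Ndufs1 (0.50), Uqcrc2 (0.57), Sdha (0.52), Uqcrfs1 (0.60) and Ndufa10 (0.65) kept part of their difference. In that fit the members' median was 0.21 and that of all genes -0.09. The fat-cell score itself differed between the groups (mean log2 level 10.28 ± 0.113 in KO and 9.60 ± 0.231 in WT libraries), so the share of the difference that goes with the proportion of fat cells and the share within them cannot be told apart. KO library 4 held the highest share of members (1.636%, next 1.181%), and 84 members were higher without it, with a median of 0.41.

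In subcutaneous fat on HFD fewer members differed between KO and WT than in epididymal fat. By edgeR, 11 of 99 members were higher and 2 lower, where 18.9% of all genes differed, 7.32% higher and 11.6% lower. The members' median was 0.05. Uqcrc2 had 200.3, 229.7 and 250.7 CPM in KO (n = 8), against 119.1, 161.6 and 177.4 CPM in WT libraries (n = 7; log2 fold change 0.71 ± 0.12, edgeR adjusted p = 6.74e-05). Sdha had 541.4, 607.0 and 649.8 CPM in KO, against 211.6, 421.7 and 457.1 CPM in WT libraries (0.80 ± 0.14, edgeR adjusted p = 0.000185). Ndufs1 had 165.8, 192.7 and 198.7 CPM in KO, against 93.5, 142.3 and 149.6 CPM in WT libraries (0.64 ± 0.12, edgeR adjusted p = 0.000288). The groups of these 3 genes did not overlap. Ndufa10 (0.68 ± 0.14), Sdhb (0.56 ± 0.16), Atp5b (0.49 ± 0.14) and the assembly factors Ndufaf4 (0.57 ± 0.12) and Ndufaf7 (0.40 ± 0.10) were higher as well, with overlap.

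The 2 members that fell were alternative forms of complex IV subunits. Cox4i2, a paralog of Cox4i1 known from lung and from cells at low oxygen, had 1.24, 1.62 and 2.26 CPM in KO, against 2.53, 2.72 and 7.78 CPM in WT libraries (-1.06 ± 0.25, edgeR adjusted p = 0.00336). Ndufa4l2, a paralog of Ndufa4 that hypoxia is known to induce, had 3.67, 5.54 and 8.97 CPM in KO, against 9.28, 10.5 and 19.9 CPM in WT libraries (-0.94 ± 0.21, edgeR adjusted p = 0.00206). All KO libraries lay below all WT libraries for both. Their common counterparts did not pass: Cox4i1 had a log2 fold change of 0.12 ± 0.17 (edgeR adjusted p = 0.651), with means of 312.5 CPM in KO and 323.4 CPM in WT libraries.

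All 13 mitochondrially encoded genes were higher in these KO libraries (CYTB 1.56, COX3 1.27, ATP6 1.28), as were 13 of 20 tricarboxylic acid cycle genes (Idh3b 0.85, Idh3g 0.66, Fh1 0.60). Of 78 mitochondrial ribosomal protein genes 7 were higher and 1 lower, with a median of -0.03. Ppargc1a was higher by 1.38 (edgeR adjusted p = 0.00051). Of 12 macrophage markers 7 were lower, with sums of 344.6 to 465.4 CPM in KO and 651.6 to 1769 CPM in WT libraries, and of 15 fat-cell markers 1 was higher and 1 lower. Of 10 tested thermogenic fat markers 6 were higher and none lower (Dio2 3.40, Cidea 1.51), with sums of 148.2 to 249.8 CPM in KO and 103.9 to 162.7 CPM in WT libraries, while Ucp1 did not pass (-0.47, edgeR adjusted p = 0.802). The part of these cell types was not tested. The count of members rested on single libraries. Without WT library 3, 24 members were higher and 2 lower (median 0.25), and without 6 libraries of this depot that stood apart in an earlier analysis of these data, 6 were higher and 2 lower (median -0.19). In every one of the 8 alternative fits, Uqcrc2, Sdha and Ndufs1 were called higher and Cox4i2 lower.

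**Figure D3:**
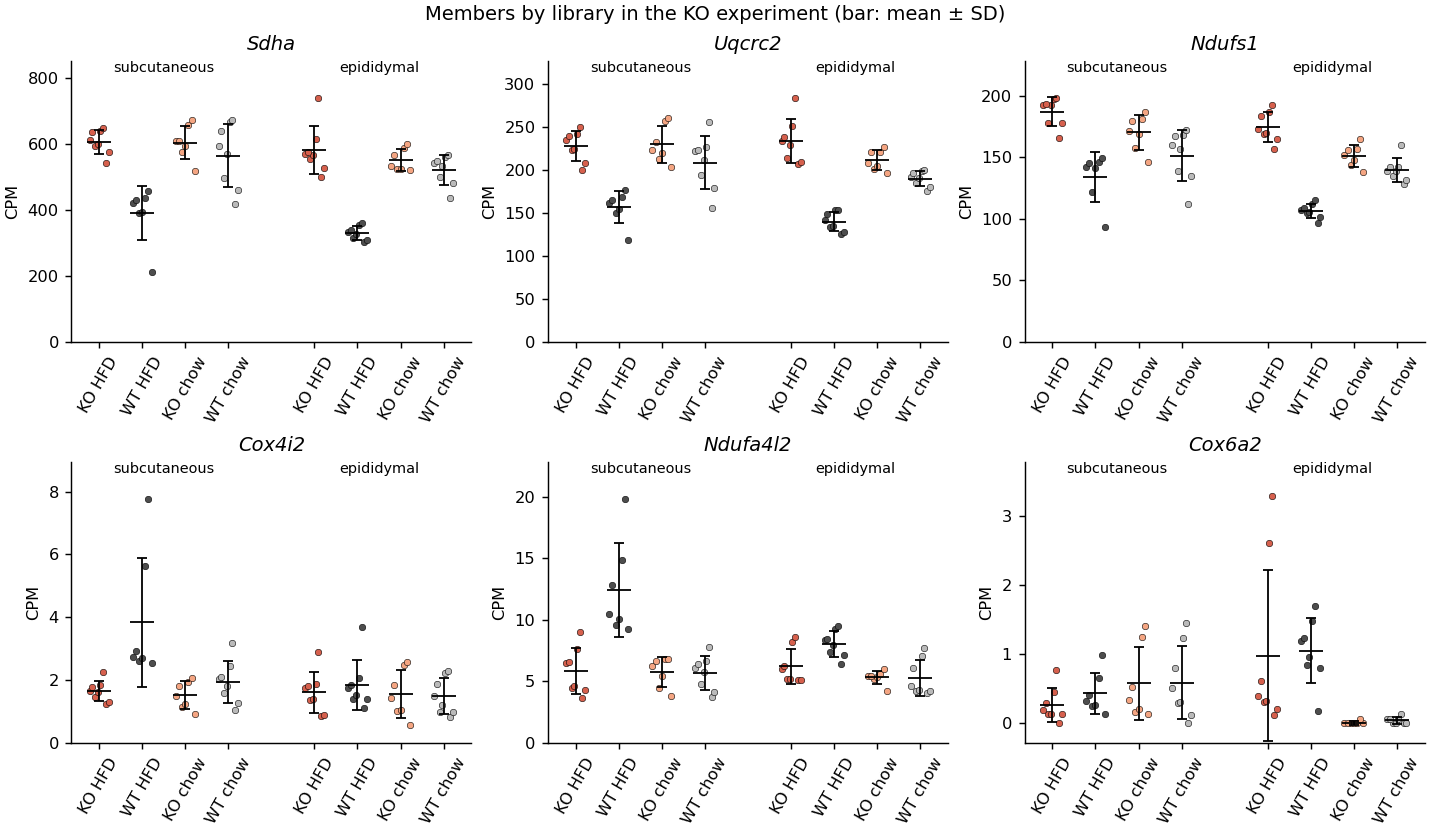
CPM (y axis) of 6 members in each library of the KO experiment, subcutaneous groups on the left and epididymal on the right of each panel, with bars for mean ± SD. Sdha, Uqcrc2 and Ndufs1 separate KO HFD from WT HFD libraries in both depots, Cox4i2 and Ndufa4l2 are high in WT HFD subcutaneous fat, and Cox6a2 is near 0 in epididymal fat on chow.

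Calls were unevenly spread over transcript length in some comparisons. They were not in mInhbe over GFP subcutaneous fat, with 33 of 50 longer and 38 of 48 shorter members called (Spearman correlation -0.05). HFD over chow in WT subcutaneous fat called 19 longer and 19 shorter members. In the subcutaneous comparison of KO and WT on HFD, 12 of the 13 called members had transcripts above the members' median of 755 bases. The Spearman correlation of log2 fold change with length was 0.53 over 99 members and 0.199 over 13665 genes, whose values come from the same libraries. For KO over WT on HFD in epididymal fat, 46 of 50 longer and 40 of 49 shorter members were called (0.31 over members, -0.03 over all genes). HFD over chow in KO subcutaneous fat called 18 longer and 2 shorter members (0.35 over members, -0.05 over all genes). Epididymal over subcutaneous fat in mInhbe mice called 17 longer and 36 shorter members (-0.54 over members, -0.17 over all genes). The part of transcript length in these results was not tested.

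The KO effect on HFD was set against the KO effect on chow. In epididymal fat the effect was higher on HFD for 36 of 99 members and lower for none by edgeR, where 7.83% of all genes were higher and 8.7% lower. Sdha (difference 0.91 ± 0.15, adjusted p = 7.63e-05), Ndufs1 (0.76 ± 0.12, adjusted p = 6.68e-05) and Uqcrc2 (0.74 ± 0.13, adjusted p = 0.000204) had the smallest adjusted p. The 36 included 17 subunits of complex I, 3 of complex II and 5 of complex III, and 2 of complex IV. Of the 36, 28 were longer and 8 shorter than 755 bases (Spearman correlation 0.35 over members and 0.01 over all genes). With a fat-cell score in the fit, edgeR called 0 of the 99 and the members' median was 0.04, against 0.40 without the score. In subcutaneous fat edgeR called 0 of 99 (2.14% of all genes passed, 0.387% higher and 1.75% lower), 6 had an unadjusted p under 0.05, and DESeq2 called 2. Ndufa4l2 (-1.02 ± 0.30, adjusted p = 0.0723) and Sdha (0.64 ± 0.20, adjusted p = 0.0921) came closest in that depot.

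Between depots, the KO effect on HFD was higher in epididymal than in subcutaneous fat for 35 of 99 members and lower for none by edgeR, where 7.76% of all genes were higher and 6.87% lower. Atp5g3 had effects of 0.60 in epididymal and -0.08 in subcutaneous fat (difference 0.66 ± 0.18, adjusted p = 0.0112). Uqcrfs1 had 0.97 in epididymal and 0.34 in subcutaneous fat (difference 0.62 ± 0.17, adjusted p = 0.0114), and Ndufv1, which binds NADH in complex I, had 1.02 and 0.33 (difference 0.68 ± 0.19, adjusted p = 0.0132). Uqcrc2 (0.21 ± 0.13) and Sdhb (0.30 ± 0.19) did not pass, each with an adjusted p of 0.298. The count fell to 6 without WT HFD subcutaneous library 3, to 17 without KO HFD epididymal library 4 and to 15 without WT HFD epididymal libraries 4 and 5. It was 69 without the 6 subcutaneous libraries that stood apart.

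HFD was set against chow within each genotype, and these comparisons share their groups with those above. In epididymal fat of KO mice, 75 of 99 members were higher on HFD and none lower by edgeR, where 38.7% of all genes differed, 24.7% higher and 13.9% lower, and the members' median was 0.46. Cox10, which makes heme O for complex IV, had 18.0, 21.9 and 29.8 CPM on HFD (n = 8), against 13.7, 14.5 and 15.3 CPM on chow (n = 7; 0.87 ± 0.12, edgeR adjusted p = 9.14e-07). Cox19 had 33.4, 42.2 and 70.7 CPM on HFD, against 20.5, 22.7 and 27.9 CPM on chow (1.17 ± 0.16, edgeR adjusted p = 1.11e-06). The peripheral stalk subunit Atp5pb had 248.5, 263.6 and 313.2 CPM on HFD, against 204.9, 209.3 and 217.6 CPM on chow (0.61 ± 0.09, edgeR adjusted p = 2.05e-06). The diets did not overlap for these 3 genes. Of 12 macrophage markers 9 were higher on HFD and 1 lower, with sums of 882.5 to 1836 CPM on HFD and 571 to 840.7 CPM on chow. Of 11 thermogenic fat markers 8 were higher, with sums of 103.5 to 144.1 CPM on HFD and 47.0 to 83.5 CPM on chow. Of 15 fat-cell markers 3 were higher and 1 lower. Their part was not tested. Without KO HFD library 4, 65 members were higher and 2 lower, and the median was 0.27.

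In epididymal fat of WT mice 14 members were higher and 11 lower on HFD by edgeR. Both were smaller shares than among all genes, of which 54.1% differed, 28.9% higher and 25.2% lower. The counts depended on scaling, with 12 higher and 19 lower under RLE size factors. Lower were Sdha, with 301.3, 329.4 and 359.1 CPM on HFD, against 437.7, 538.9 and 568.7 CPM on chow (-0.58 ± 0.10, n = 8 each, edgeR adjusted p = 2.11e-05), and Ndufa5, with 19.7, 20.7 and 24.5 CPM on HFD, against 26.5, 30.1 and 32.4 CPM on chow (-0.39 ± 0.06, edgeR adjusted p = 5.15e-06). Neither gene's diets overlapped. Uqcrc2 (-0.35 ± 0.09), Ndufb8 (-0.42 ± 0.13), Ndufs1 (-0.30 ± 0.08) and the gamma subunit Atp5c1 (-0.29 ± 0.11) were lower too. Higher were Cox19, with 24.6, 31.0 and 35.8 CPM on HFD, against 17.6, 20.8 and 23.4 CPM on chow (0.65 ± 0.15, edgeR adjusted p = 0.000547), Cox10 (0.49 ± 0.11), Atp5mpl (0.48 ± 0.10), Ndufa8 (0.44 ± 0.12) and Ndufa4l2 (0.69 ± 0.16). In these WT libraries 11 of 12 macrophage markers were higher on HFD and 1 lower, and of 15 fat-cell markers 10 were lower and 2 higher. With a fat-cell score in the fit, 41 members were higher and 1 lower, and the median of all genes was 0.19.

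Cox6a2, the form of heart and skeletal muscle, was lowest in epididymal fat on chow. KO libraries had 0.121, 0.360 and 3.29 CPM on HFD, and on chow 6 of 7 were at 0 and the other at 0.0702 CPM (edgeR adjusted p = 6.09e-06). WT libraries had 0.186, 1.08 and 1.71 CPM on HFD, against 0, 0.0337 and 0.141 CPM on chow (edgeR adjusted p = 7.54e-06). No fold is given, since every chow library lay below the level of 3 counts. Skeletal-muscle markers moved in the same libraries: 9 of 13 were higher on HFD in KO mice, with sums of 84.3 to 1472 CPM on HFD and 22.5 to 211.6 CPM on chow, and 8 of 13 in WT mice, with 36.1 to 757.4 CPM on HFD and 32.8 to 199.9 CPM on chow. The highest Cox6a2 level of all libraries, 10.4 CPM in GFP epididymal library 8, came with the highest muscle marker sum, 4270 CPM. Thermogenic fat markers also had a high extreme in the GFP epididymal group: Ucp1 reached 786.7 CPM (mean 79.4) and Cidea 247.3 CPM (mean 27.2), while Ppargc1a reached 23.3 CPM (mean 12.6). The part of muscle or thermogenic fat RNA was not tested.

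In subcutaneous fat, 20 of 99 members were higher on HFD and none lower in KO mice by edgeR (20.7% of all genes differed, 11.7% higher and 9.05% lower). In WT mice 37 were higher and 1 lower (44.1% of all genes differed, 22.6% higher and 21.5% lower). In KO mice Ndufaf4 had 26.0, 32.0 and 38.6 CPM on HFD, against 21.4, 25.1 and 29.1 CPM on chow (0.61 ± 0.12, edgeR adjusted p = 0.000334). Cox19 (0.65 ± 0.14), the core subunit Uqcrc1 (0.55 ± 0.15), Sdhd (0.47 ± 0.13) and Atp5b (0.46 ± 0.14) were higher as well. In WT mice Ndufa4l2 had 9.28, 10.5 and 19.9 CPM on HFD, against 3.70, 5.90 and 7.81 CPM on chow, without overlap (1.29 ± 0.21, edgeR adjusted p = 1.55e-05). Cox19 (0.80 ± 0.14), Cox4i2 (1.16 ± 0.25), Ndufb6 (0.71 ± 0.17) and Atp5g3 (0.62 ± 0.16) were higher in WT mice. Sdha was the one lower member there (-0.38 ± 0.14, edgeR adjusted p = 0.0305). WT HFD library 6 had 211.6 CPM and the other 6 had 392.4 to 457.1 CPM. The call was lost without the libraries that stood apart (edgeR adjusted p = 0.276). That fit left out WT HFD libraries 1, 2, 4 and 6 together, and none left out library 6 alone. Without WT HFD library 3, 20 members were higher and 2 lower, and the WT median was 0.13 instead of 0.33.

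**Figure D4:**
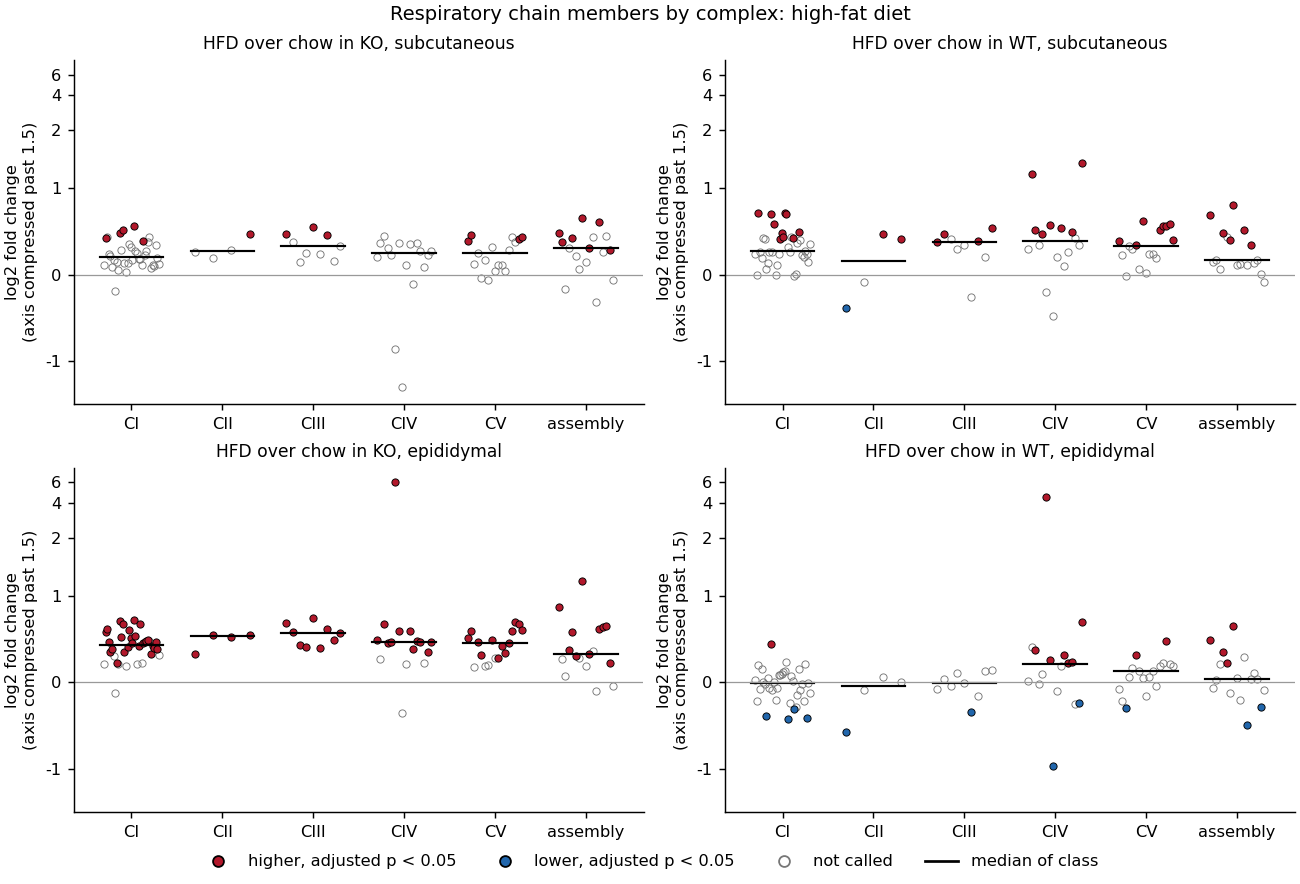
Log2 fold change of HFD over chow (y axis, compressed past 1.5) for each tested member by complex, in KO mice (left) and WT mice (right), subcutaneous fat on top and epididymal below; filled points passed an edgeR adjusted p of 0.05 and lines are class medians. In epididymal fat 75 members were higher in KO mice, while 14 were higher and 11 lower in WT mice, and the point at the top is Cox6a2.

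The depots were compared within each group. On chow they barely differed: by edgeR 1 member was higher and 1 lower in epididymal than in subcutaneous fat of KO mice (36.0% of all genes differed, 21.0% higher and 15.0% lower), and 2 were higher and 1 lower in WT mice (43.1%). KO mice on HFD had 4 higher and 2 lower (41.8% of all genes), or 4 higher and 1 lower under RLE size factors. WT mice on HFD had 1 higher and 68 lower (40.8% of all genes differed, 21.8% higher and 18.9% lower), with a median of -0.38. Uqcrfs1 had 83.5, 96.7 and 108.3 CPM in epididymal (n = 8), against 109.2, 120.8 and 231.1 CPM in subcutaneous WT HFD libraries (n = 7; -0.68 ± 0.12, edgeR adjusted p = 1.31e-05). The depots did not overlap. Of 12 macrophage markers 11 were higher and 1 lower in epididymal fat, with sums of 5037 to 8044 CPM in epididymal and 651.6 to 1769 CPM in subcutaneous WT HFD libraries. Of 15 fat-cell markers 12 were lower and none higher, and the part of both was not tested. Without subcutaneous library 3, 28 members were lower and 3 higher.

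After the AAV, 50 of 98 members were higher and 3 lower in epididymal fat of mInhbe mice, with a median of 0.25. Of all genes 64.7% differed, 35.7% higher and 29.0% lower. GFP mice had 4 higher and 20 lower, with a median of -0.12, where 64.5% of all genes differed, 35.8% higher and 28.7% lower. In mInhbe mice Cox6c had 147.7, 206.6 and 301.5 CPM in epididymal, against 117.0, 130.6 and 153.5 CPM in subcutaneous libraries (0.66 ± 0.11, edgeR adjusted p = 8.9e-07), and the 3 lower members were Sdha (-0.33 ± 0.09), Ndufs1 (-0.36 ± 0.11) and Uqcrc2 (-0.23 ± 0.09). In GFP mice the lower members included Cox19 (-0.67 ± 0.12), Sdhb (-0.52 ± 0.13) and cytochrome c1, Cyc1 (-0.66 ± 0.19). All 13 lymph-node markers were lower in epididymal fat in all 6 groups. The part of lymph-node tissue in the depot differences was not tested.

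Atp5g1 was called higher in epididymal fat in all 6 groups. It had 27.5, 45.6 and 53.4 CPM in epididymal, against 18.5, 23.1 and 31.0 CPM in subcutaneous libraries of mInhbe mice (0.91 ± 0.13, edgeR adjusted p = 1.73e-07). The log2 fold change was 0.47 ± 0.13 in GFP, 0.48 ± 0.13 in KO HFD, 0.40 ± 0.14 in WT HFD, 0.54 ± 0.14 in KO chow and 0.49 ± 0.13 in WT chow mice. The WT HFD call was lost (adjusted p = 0.17) without the subcutaneous libraries that stood apart. Cox6b2 was higher in epididymal fat of GFP (1.44), KO HFD (1.53), WT chow (1.23) and mInhbe mice. In mInhbe mice it had 1.26 to 2.67 CPM in epididymal, against 0.588 to 1.14 CPM in subcutaneous libraries, without overlap. In WT chow mice it had 1.28, 1.72 and 2.43 CPM in epididymal, against 0.382, 0.648 and 1.24 CPM in subcutaneous libraries. Epididymis markers summed to 2421 to 16450 CPM in epididymal libraries of mInhbe mice and to at most 1.27 CPM in any subcutaneous library, and their part in the level of Cox6b2 was not tested.

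**Figure D5:**
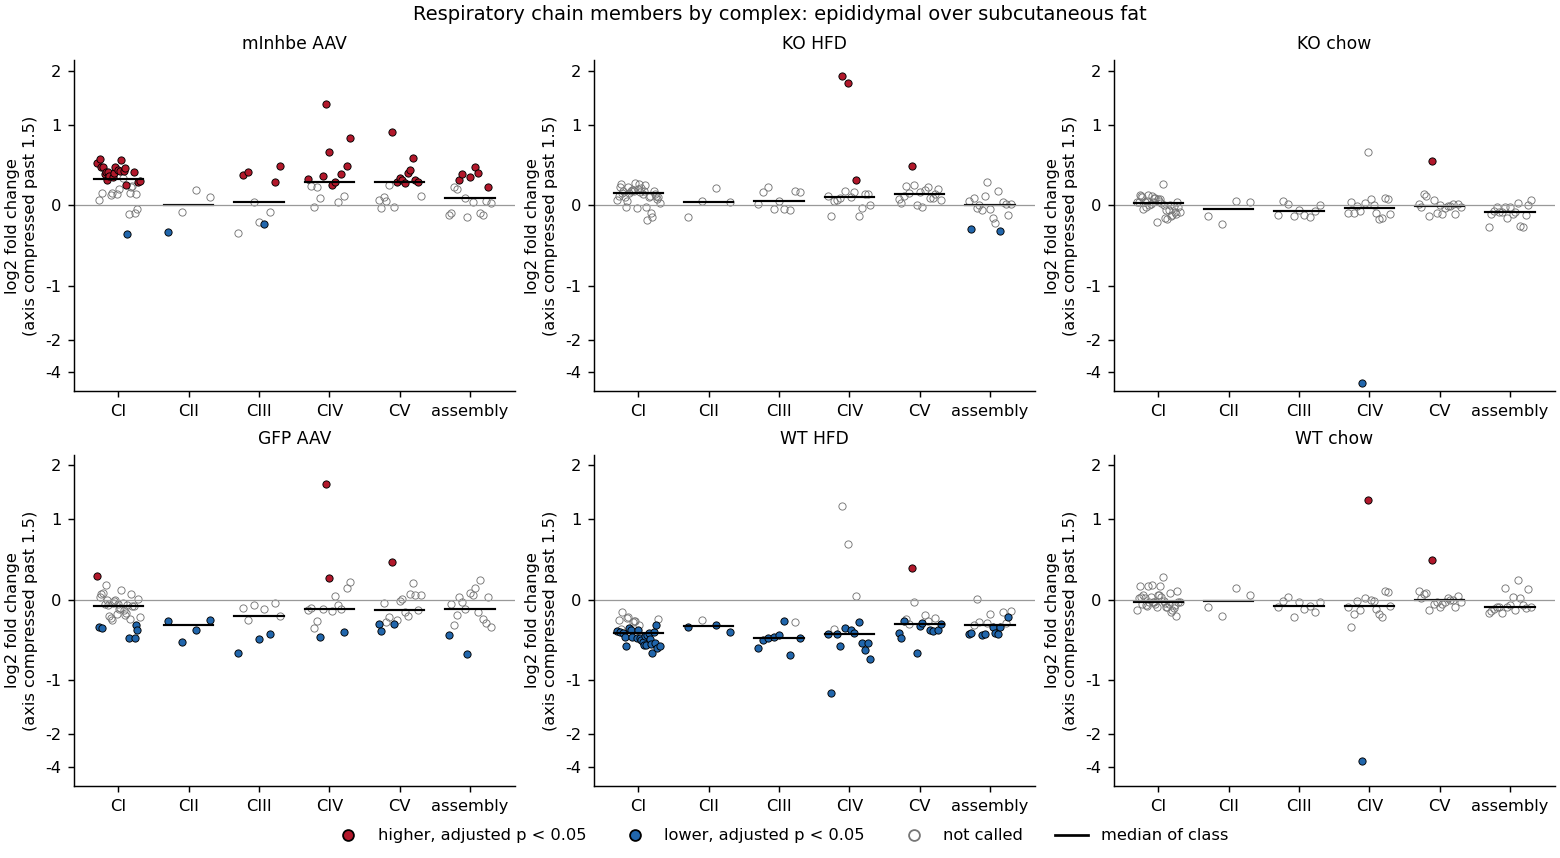
Log2 fold change of epididymal over subcutaneous fat (y axis, compressed past 1.5) for each tested member by complex in the 6 groups; filled points passed an edgeR adjusted p of 0.05 and lines are class medians. WT HFD mice show 68 lower members (18.9% of all genes were lower) and mInhbe mice 50 higher ones (35.7% of all genes were higher). The chow groups show 3 or fewer of either, where 36.0% (KO) and 43.1% (WT) of all genes differed.

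Over the 16 comparisons of 2 groups, which share groups with each other, Sdha was called 9 times (3 higher, 6 lower). Atp5g1, Ndufa8, Ndufaf7 and Cox10 followed with 8 calls each, and for Atp5g1 all 8 were higher. The tested member that was never called was Ndufaf8.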

How the data were processed

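RNA-seq of 101 adipose libraries in 12 groups was analysed. Per the labels, libraries were made from 500 ng of RNA with a KAPA mRNA HyperPrep kit and adapters with molecular identifiers, with 14 PCR cycles. The authors deposited estimated counts per gene (Entrez IDs) in 1 table per experiment, of which 2.94% of values were not whole. The build was mm10 per the submitters' processing notes, and aligner, counting, strand setting and use of the molecular identifiers were not given in the sources used here. Gene symbols were joined from RefSeq GRCm38.p6 (24375 of 24475 IDs). Estimated counts were rounded and tested with edgeR 4.0.16 (quasi-likelihood F test, TMM scaling, filterByExpr), each depot with all its groups, and depot contrasts over both depots of an experiment. The Benjamini-Hochberg adjustment ran over all genes, with a threshold of 0.05. Samples were grouped by the labels, which do not say that libraries came from separate mice, so p-values measure the spread between libraries. Fits were tested on simulated data. Levels per kb used the median GENCODE transcript length. Markers scored tissue (lymph node in subcutaneous, epididymis in epididymal fat) and fat cells by mean log2 level. Alternatives were RLE size factors, DESeq2 1.42.0, no low-count filter, a replicate block, these scores as covariates, and libraries left out. The members and lists were chosen with earlier results of these data known. Named were, in each comparison, 1 fixed subunit per complex (Ndufb8, Sdhb, Uqcrc2, Cox4i1, Atp5a1), the 2 called members with the smallest adjusted p per complex, calls against the majority, the paralog forms, and, where few passed, the 3 smallest p. Regulators and other members beyond it were chosen after their values were seen.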

Additional observations from a re-analysis of the deposited data

Results flagged for a closer look

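Of 216 sets of libraries tested for a library far from the rest of its group, 45 were set apart, in 14 libraries. Chance alone sets apart about 1 in 20 such groups, and the sets overlap, since sums share their genes. GFP epididymal library 8 had the highest shares of counts for complex I (0.371%), II (0.1187%), III (0.1709%), IV (0.279%) and all members (1.484%). It also had the highest Ndufb8 (202.6 CPM), Sdhb (174.4), Uqcrc2 (295.9), Atp5a1 (1139), Ndufs1 (209.4) and Cox6a2 (10.36 CPM) of its group. WT HFD subcutaneous library 3 was highest for complex I (0.4266%), IV (0.348%), assembly factors (0.04568%), all members (1.64%), Ndufb8 (181.1 CPM), Sdhb (176.8) and Cox4i1 (639.4). In that library ribosomal protein genes took 4.48% of counts. KO HFD epididymal library 4 was highest for complex I (0.3836%), II (0.1378%), III (0.165%), IV (0.2499%), V (0.6653%), all members (1.636%), Ndufb8 (181.6 CPM), Sdhb (202.2), Cox4i1 (544.3) and Atp5a1 (1425). GFP subcutaneous library 2 was highest for complex III (0.1469%), IV (0.234%), Ndufb8 (181.8 CPM), Cox4i1 (599.9) and Atp5g1 (39.72).

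WT chow subcutaneous library 2 was highest for complex IV (0.2%) and Sdhb (161.4 CPM), and mInhbe subcutaneous library 9 for Uqcrc2 (235.2 CPM) and Sdha (610.6 CPM). Single genes set apart the other libraries. Cox4i1 was highest in mInhbe subcutaneous library 4 (456.6 CPM), and Ndufs1 in WT chow epididymal library 6 (160.4 CPM). Sdha was lowest in WT HFD subcutaneous library 6 (211.6 CPM). Cox4i2 was highest in mInhbe epididymal library 9 (6.439 CPM) and WT HFD epididymal library 7 (3.673 CPM). Atp5g1 was lowest in GFP epididymal library 7 (21.16 CPM). Cox6a2 was highest in GFP subcutaneous library 5 (4.265 CPM) and KO chow epididymal library 5 (0.07018 CPM, 1 count). The causes were not tested.

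Effects differed between groups by edgeR tests of the difference itself. The KO effect was higher on HFD than on chow in epididymal fat for 36 members, among them Ndufs1 (0.755), Sdha (0.905) and Uqcrc2 (0.744). The mInhbe effect was higher in epididymal than in subcutaneous fat for 15 members, among them Sdhc (0.563), Ndufc1 (0.652) and Ndufb4 (0.487). The KO effect on HFD was higher in epididymal than in subcutaneous fat for 35, among them Atp5g3 (0.663), Uqcrfs1 (0.618) and Ndufv1 (0.678).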

How the results depend on the processing

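Over 134 alternative fits of 20 counts of called members, 108 stayed within 1.5 times. These counts take higher and lower calls together, so they do not show a change of direction. The exceptions, as members called, follow. Fits without WT HFD subcutaneous library 3, KO HFD epididymal library 4 or WT HFD epididymal libraries 4 and 5 were chosen after seeing the data. For mInhbe over GFP, 71 calls became 7 with the lymph-node score and 12 with the fat-cell score in subcutaneous fat, and 0 became 1 with the fat-cell score in epididymal fat. For KO over WT on HFD in subcutaneous fat, 13 calls became 20 with the fat-cell score, 8 without the libraries that stood apart and 26 without WT library 3. In epididymal fat 86 became 12 with the fat-cell score. With the fat-cell score, HFD over chow had 63 calls in KO subcutaneous fat and 42 in WT epididymal fat. It had 22 in WT subcutaneous fat without library 3. The difference of KO effects between diets had 2 calls by DESeq2, 1 with the lymph-node score and 4 with the fat-cell score in subcutaneous fat, where the main count was 0, and 0 instead of 36 with the fat-cell score in epididymal fat. Between depots, WT HFD had 31 calls without subcutaneous library 3, and without the low-count filter KO chow had 4 and WT chow 5. The depot difference of the mInhbe effect had 23 calls by DESeq2, 7 without the filter and 5 without the libraries that stood apart. That of the KO effect on HFD had 69 without the libraries that stood apart, a fit that kept WT HFD subcutaneous library 3. It had 6 without that library, 17 without KO HFD epididymal library 4 and 15 without WT HFD epididymal libraries 4 and 5. The causes were not tested. The labels do not pair libraries by replicate number, and not every same-number correlation exceeded 0.1: 14 of 50 same-number correlations between depots and 47 of 108 within depots did, and 15 of each kind were the best for that number. Between the KO HFD depots, the pair with the most such correlations, 5 of 8 exceeded 0.1 and 5 of 8 were the best for their number. That is a hint that these depots may share mice. Between the mInhbe depots 0 of 10 exceeded 0.1 and 0 were the best, so the correlations do not settle whether depots share mice. With the number as a block, the depot difference of the mInhbe effect had 0 calls and that of the KO effect on HFD 22, and no other count moved by over 1.5 times. In 6 fits the members' median changed sign. Their medians in the reported fits were 0.05 (KO over WT on HFD, subcutaneous), 0.04 (HFD over chow in WT, epididymal) and -0.10 (the difference of KO effects between diets, subcutaneous). At 12970509 to 20170746 counts, Cox6a2, Cox7b2 and Cox8c were limited by depth.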
